A study of Nicotiana tabacum with 6 samples.

Results

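The 247 array probes described here had a measured signal at least 8-fold higher in aluminium-treated than in control tobacco cells. For 55 of them no control array was above background, so that the true size is known only as an approximate bound. That bound was 8-fold or more in 13. The members were chosen by the measured difference from 43759 tobacco probes. A member had to be well above background, as the scanner software flags it, on all 3 aluminium arrays. Its mean log2 level there had to exceed the control mean by 3 or more, and 27426 probes could have qualified. Identifiers of 1 letter with 5 digits, or of AB, AF, AY or DQ with 6 digits, were left out (1216 probes, 832 of them of the second form), which removed 20 further probes that met the signal conditions. Because the difference itself chose the members, its size is given below as a description and not as a test.

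Total RNA came from suspension-cultured Nicotiana tabacum cells of the line that the labels call wild-type SL. The 3 aluminium samples were held for 18 h with 100 µM AlCl3, and the 3 control samples for 18 h in the same medium with 0 µM. That medium contained CaCl2 (3 mM), sucrose (3%) and MES (20 mM) at pH 5.0, and both groups were shaken at 25 °C. Each sample was hybridised to its own single-colour array, and the labels do not say whether replicates came from separate cultures. The background flag was passed by 67.8% to 74.6% of probes with aluminium and by 62.1% to 74.8% in the control. Both arrays numbered 3 lay on a slide with its own scan day, and their 75th-percentile signals were 1180.0 with aluminium and 1405 in the control, against 2789 to 3224 on the other 4. No tobacco spot was saturated, and 3 arrays per group limit the precision.

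Aluminium becomes soluble as a toxic ion in acid media, where it binds to the pectin of plant cell walls and to the phospholipids of the plasma membrane. Cultured tobacco cells have long been used to study its effects, among them callose deposition, lipid peroxidation in the presence of iron, the formation of reactive oxygen species and the loss of growth. Plants are known to respond to the ion in part through transcription, including that of transporters for organic acids that bind it outside the cell. Which of the members, if any, belong to these responses cannot be told here. The array files give each probe a sequence identifier and no gene name or sequence, and 0 of the 234 identifiers of the members matched the RefSeq table of tobacco genes. Members are therefore named by probe and identifier, and the letters of the identifiers are the only grouping that the files offer.

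Levels are log2 processed signals relative to the 75th percentile of the same array, so a level of 0 lies at that percentile. The signal comes from a fixed amount of total RNA, so levels are relative to it. A change in the number of cells or in total RNA per cell cannot be seen in them. Among the 139 members detected on every control array, the median difference was 3.53 (log2), or 11.6-fold, and the quartiles lay at 9.47-fold and 16.1-fold. Of these 139, 36 were 16-fold or more higher, 8 were 32-fold or more, 3 were 64-fold or more and 1 was over 128-fold. With the other 108, whose controls were partly or wholly undetected, the median was 3.61, and a background correction described below brought it to 2.67 (6.36-fold). Over all 28861 probes tested, the median difference was 0.07 (log2).

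The members fell into 4 classes by the background flag on the control arrays. All 3 control arrays detected 139 of them, 2 detected 26, only 1 detected 27 and none detected 55. The measured differences had medians of 3.53, 3.48, 3.74 and 3.73 (log2), while the correction with an added offset gave medians of 9.04, 4.46, 3.15 and 2.32-fold for the same classes. The offset shrinks the folds of dim probes by construction, so the order of these medians is no evidence on the true folds. The last 3 classes include control values below detection, so their measured values are no exact folds. The aluminium median was 0.43 in the first class and -2.39, -3.64 and -4.47 in the others, and the control median was -3.40 in the first class and -6.18, -7.31 and -8.51 in the others.

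**Figure D1:**
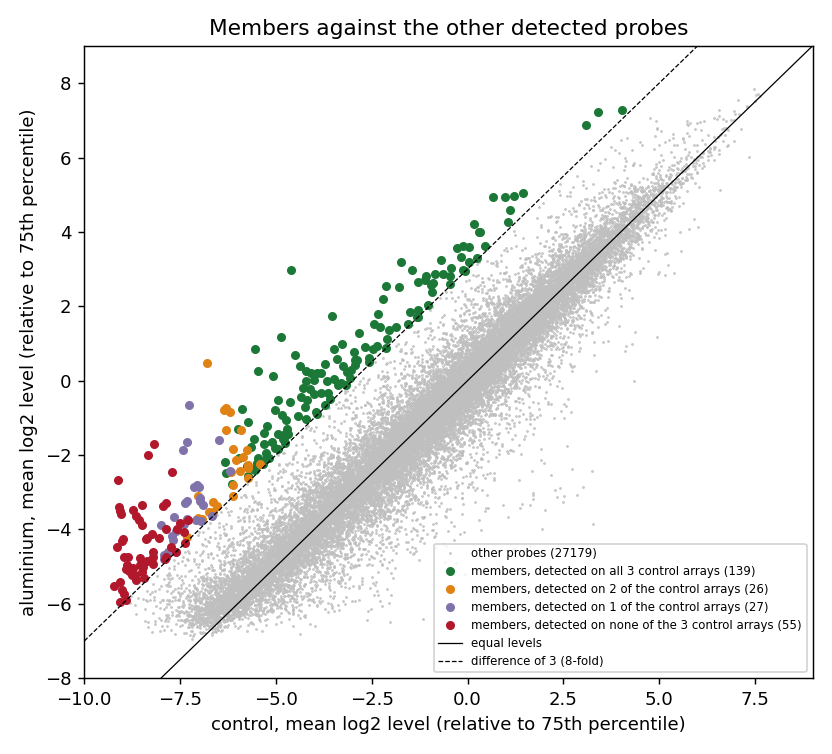
Mean log2 level with aluminium (vertical) against the mean log2 level in the control (horizontal), both relative to each array's 75th percentile, for the 247 members and the 27179 other probes that could have qualified. The members lie on or above the dashed 8-fold line by choice. Those detected on no control array occupy the dim lower left corner, and 3 bright members stand apart at the upper right.

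The 12 largest differences among the 139 members detected in every control came first by the naming rule. Probe A_95_P121867 (identifier DW001957) had processed signals of 23151, 21065 and 10175 in aluminium replicates 1 to 3, against 122, 124 and 62.2 in control replicates 1 to 3. Its log2 levels were 3.05, 2.78 and 3.11 with aluminium, against -4.59, -4.70 and -4.50 in the control. It averaged 2.98 ± 0.18 with aluminium and -4.59 ± 0.099 in the control (SD, n = 3 each), a difference of 7.57 or 190.4-fold. The lower raw signals of both replicate 3 samples disappeared after scaling, and the differences within the replicate numbers were 7.64, 7.47 and 7.60. In the brightness ranking of all probes it stood at a mean percentile of 94.2 with aluminium, against 44.3 in the control.

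Probe A_95_P163777 (EH622852) had levels of 0.74, 0.49 and 1.35 with aluminium, against -5.57, -5.12 and -5.94 in the control. Its difference of 6.41 (84.9-fold) was made up of 6.31, 5.61 and 7.30 in replicates 1, 2 and 3, so replicate 3 lay well above replicate 2. Both groups contributed, as aluminium replicate 3 was the highest and control replicate 3 the lowest of its group. A_95_P243372 (DW003345) was at 1.33, 0.71 and 1.50 with aluminium, against -4.67, -4.81 and -5.09 in the control, a 65.6-fold difference. Probe A_95_P201093 (FS405780) had 0.41, -0.24 and 0.64 with aluminium, against -5.28, -5.48 and -5.66 in the control, a 53.5-fold difference. In these 2 probes aluminium replicate 2 was the lowest of the treated samples, and the groups were separated by more than 5 log2 units.

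Lower in the same ranking stood A_95_P099008 (BP534728), with levels of 1.45, 1.60 and 2.18 with aluminium, against -3.85, -3.39 and -3.37 in the control (38.8-fold). A_95_P162202 (EH621096) was at 0.70, 0.43 and 0.96 with aluminium, against -4.32, -4.66 and -4.55 in the control (37.0-fold). For A_95_P272376 (EB449647) the levels were 0.39, 0.33 and -0.33 with aluminium, against -4.83, -4.89 and -5.48 in the control (36.7-fold). The last of these was lowest in replicate 3 of both groups, so its differences of 5.22, 5.23 and 5.15 nearly coincided although the levels did not. A_95_P123392 (DW003237) had -0.74, -0.62 and -0.89 with aluminium, against -6.40, -5.29 and -6.00 in the control (35.3-fold), with most of its spread among the controls. These 4 probes lay between -0.89 and 2.18 with aluminium, against -3.37 or lower in every control.

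A further 2 of the 12 were the least dim in the control. A_95_P096008 (BP533429) was at 3.11, 2.91 and 3.54 with aluminium, against -1.70, -1.83 and -1.67 in the control, a 30.2-fold difference. A_95_P136227 (EB439887) was at 2.57, 2.73 and 2.35 with aluminium, against -2.12, -1.78 and -2.47 in the control, a 25.5-fold difference. These are the 2 of the 12 whose controls lay above -2.50 on every array. A_95_P160082 (EH618720) had -0.05, 0.47 and 0.79 with aluminium, against -4.33, -4.16 and -4.66 in the control (27.6-fold), and A_95_P256139 (EH618195) had -1.23, -1.36 and -1.34 with aluminium, against -6.23, -5.91 and -5.82 in the control (25.5-fold). The aluminium levels of A_95_P160082 had an SD of 0.42 and those of A_95_P256139 an SD of 0.072 (n = 3 each). No control level of any of the 12 reached an aluminium level of the same probe. Their choice by the largest difference favours this, and 29.1% of the 28861 probes tested were separated in the same way.

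**Figure D2:**
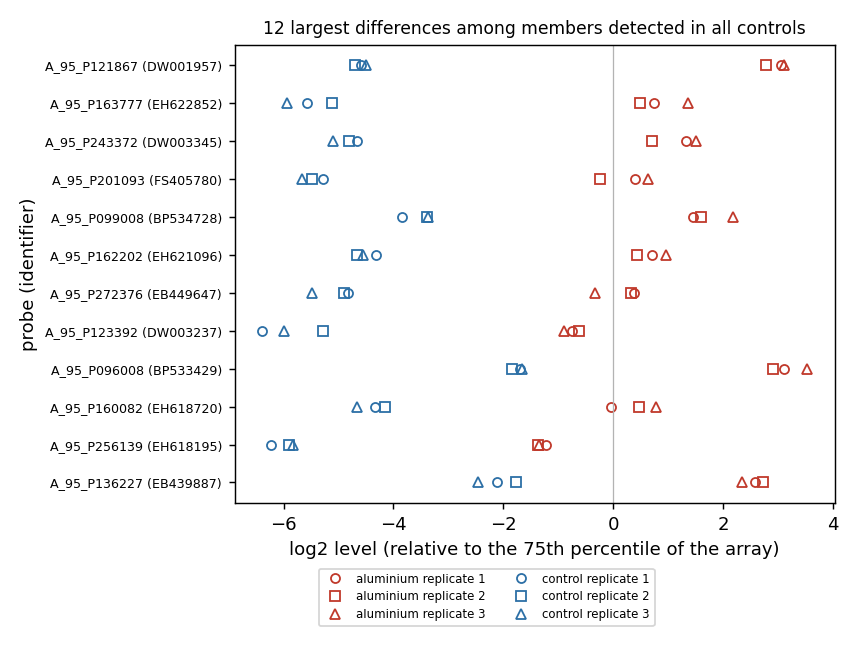
Log2 level on each array (horizontal, relative to the array's 75th percentile) of the 12 members with the largest difference among those detected on all 3 control arrays, with 1 symbol per sample and aluminium in red and control in blue. The 12 were chosen for a large distance between the groups, which exceeds the spread within either group. A_95_P121867 is at 2.78 to 3.11 in aluminium samples against -4.70 to -4.50 in control samples.

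Background correction bears on the size of these folds. The scanner signal was replaced by spot medians corrected with normexp and an offset of 50, which adds to every signal and so shrinks the folds of dim probes by construction. A_95_P121867 was then 111-fold higher, A_95_P163777 31.9-fold, A_95_P243372 32.0-fold and A_95_P123392 12.8-fold, while the brighter A_95_P096008 remained at 27.1-fold. The median of the 139 members was 9.04-fold by this correction, and 86 of them still reached 8-fold.

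The members detected on no control array gave only an approximate lower bound. A control array entered with the dimmest level that it flagged as well above background, or with the member's level where that was higher, and the bound is the aluminium mean over the mean of these (log2 means). That dimmest level is no strict limit. On control replicate 1 it was a signal of 24.3, and the member A_95_P188912 was unflagged there at 25.9. The true fold of a member can therefore lie below its bound. The 55 bounds had a median of 5.27-fold and ran between 1.90-fold and 35.9-fold. A bound of at least 4-fold was reached by 37 probes, of at least 8-fold by 13 and of at least 16-fold by 4. Under the offset of 50 the median of the 55 was 2.32-fold, 39 reached 2-fold and 2 reached 8-fold.

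The highest bound belonged to A_95_P124062 (DW003911), with levels of -1.74, -1.65 and -1.73 with aluminium, against -8.41, -7.88 and -8.26 in the control. It was at least 35.9-fold higher with aluminium, from measured means of -1.71 ± 0.049 with aluminium and -8.18 ± 0.27 in the control. The 3 treated samples agreed closely, with an SD of 0.049. A_95_P207657 (TA18788_4097) had -1.98, -2.23 and -1.76 with aluminium, against -9.06, -7.46 and -8.51 in the control and a bound of at least 29.4-fold. Its control values spread over 1.60 log2 units below the detection limit, where differences between arrays carry no order.

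A_95_P004551 (FG642759) had levels of -2.47, -2.55 and -2.31 with aluminium, against -7.48, -8.25 and -7.40 in the control, with an approximate bound of 21.5-fold. Next came A_95_P286553 (FG644900) with -2.86, -3.04 and -2.10 with aluminium, against -9.16, -9.53 and -8.65 in the control and an approximate bound of 18.5-fold. Its measured difference of 6.45 would correspond to 87.3-fold, which the bound does not bear because the controls were the dimmest of these probes. A_95_P002676 (CV018501) had -2.97, -3.63 and -3.31 with aluminium, against -7.19, -8.05 and -8.33 in the control and an approximate bound of 11.9-fold. A_95_P205077 (EB446847) had -2.95, -4.02 and -3.03 with aluminium, against -9.03, -8.59 and -7.88 in the control. Its approximate bound was 11.6-fold, with aluminium replicate 2 about 1 log2 unit under the other treated samples. In all 6 probes the lowest aluminium level stayed more than 3 log2 units above the highest measured control level. Every one of those control levels was below detection, so the gap has no exact size.

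Detection of members in the control differed between its arrays. Of the 53 partly detected members, 49 were well above background on control replicate 2, 29 on control replicate 1 and 1 on control replicate 3. All 26 members with 2 detections had them on replicates 1 and 2, and 23 of the 27 with a single detection had it on replicate 2. This is the order of the arrays' overall detection, at 74.8%, 69.4% and 62.1% of all probes for control replicates 2, 1 and 3. The share that sensitivity of the arrays had in the split was not tested. Without control replicate 2, the members at 8-fold or more with no detection in the control numbered 89.

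The second largest measured difference was in this partly detected class and fell outside the naming rule, so it was picked out after its values were seen. A_95_P202902 (DW003887) had processed signals of 4423, 3202 and 1954 in aluminium replicates 1 to 3, against 41.8, 28.7 and 8.16 in the control. Control replicates 1 and 2 were well above background and replicate 3 was not. Its levels were 0.67, 0.06 and 0.73 with aluminium, against -6.13, -6.81 and -7.43 in the control, a measured difference of 7.27 or 155-fold. With control replicate 3 raised to the lowest level that its array flagged as above background, the fold was 122, and with the offset of 50 it was 35.5.

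The members were chosen by the same signals, so their larger share and higher ranks follow from the rule and are given as a description. As a group, the members took a larger part of the signal with aluminium on every array. They held 1.15%, 1.14% and 1.20% of the summed processed signal of aluminium replicates 1 to 3, against 0.107%, 0.104% and 0.0996% in the control replicates. The median member stood at percentile 63.1 of all probes with aluminium and at percentile 39.7 in the control. Between 83 and 86 members exceeded the 75th percentile on an aluminium array, against 14 to 17 on a control array, and 56 were above it on every aluminium array and below it on every control array. Among the 1000 brightest probes of an array were 12, 11 and 10 members in aluminium replicates 1 to 3, against 0, 0 and 1 in control replicates 1 to 3.

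Much of that signal came from few probes. The 3 brightest members carried 42.6%, 42.5% and 42.9% of the members' summed signal in aluminium replicates 1 to 3, against 43.8%, 42.2% and 47.2% in the control. A_95_P200592 (EH621500) was at 7.25, 7.13 and 7.49 with aluminium, against 3.96, 3.88 and 4.26 in the control, a 9.56-fold difference. A_95_P101308 (CN498791) was at 7.21, 7.20 and 7.29 with aluminium, against 3.52, 3.37 and 3.30 in the control, a 14.3-fold difference. A_95_P022806 (TA13004_4097) was at 6.91, 6.88 and 6.84 with aluminium, against 3.18, 3.04 and 3.02 in the control, a 13.9-fold difference. These 3 were bright in both groups, and their folds hardly moved under the offset of 50, at 10.1, 15.3 and 13.8. Brightness also depends on the probe, so it does not rank the transcripts by abundance.

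The dimmest members were at the opposite end. A_95_P280463 (AM802635) was at -6.29, -5.82 and -5.72 with aluminium, against -9.08, -9.51 and -8.62 in the control, with a bound of 1.90-fold. A_95_P152742 (EB683095) was at -5.83, -5.69 and -6.18 with aluminium, against -8.95, -9.37 and -8.44 in the control, with a bound of 1.96-fold. A_95_P104272 (CV016920) was at -6.07, -5.68 and -5.48 with aluminium, against -9.18, -9.16 and -8.57 in the control, with a bound of 2.19-fold. All 3 controls of each were undetected, so the signal bears no more than these bounds.

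The limit of 8-fold has no gap around it in the measured values. Just inside were A_95_P152727 (FS404083) with a difference of 3.01, A_95_P186297 (EH620065) with 3.02 and A_95_P001076 (EH620420) with 3.02. Just outside were A_95_P065990 (BP136478) with 2.999, A_95_P139072 (EB442775) with 2.995 and A_95_P262746 (FG639615) with 2.986. Among these 6, A_95_P065990 and A_95_P262746 were undetected on every control array, with approximate bounds of 2.13-fold and 4.21-fold. A_95_P186297 was detected on 2. The steps across the limit were smaller than the spread of any of these probes between replicates. For A_95_P152727 the levels were 1.66, 1.57 and 1.94 with aluminium, against -1.14, -1.41 and -1.31 in the control, and for A_95_P139072 they were -1.88, -1.92 and -2.14 with aluminium, against -4.80, -4.81 and -5.32 in the control.

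All 247 members had their 3 aluminium levels above their 3 control levels, as did 29.1% of the 28861 probes tested. Among the 139 detected in every control, the gap between the lowest aluminium and the highest control level had a median of 3.15 (log2) and was at least 3 in 84. Fitted over all tested probes with limma (two-sided, Benjamini-Hochberg adjusted p under 0.05), 246 members were called higher, where 22.4% of all tested probes were. With the replicate number as a block 247 were called, where 34.9% of all tested probes were. Since the same contrast chose the members, nothing is read from either count. The 1 member not called without the block was A_95_P164857 (EH624236), which also had the smallest gap, at 0.21. It was singled out after its values were seen, and its levels were -4.05, -2.21 and -5.07 with aluminium, against -6.89, -5.28 and -8.67 in the control. That gap lies between aluminium replicate 3 and control replicate 2, which were on different slides. Within replicates 1, 2 and 3 its differences were 2.85, 3.07 and 3.60, although control replicates 1 and 3 did not detect it.

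Each replicate number shared a slide, so the difference can be followed in 3 pairs of arrays. On replicates 1, 2 and 3 the 139 members detected in every control had median differences of 3.54, 3.45 and 3.80 (log2), where the 26525 probes detected on all 6 arrays had medians of 0.04, 0.01 and 0.06. A difference of 3 or more was seen in 125, 114 and 137 of the 139, in every pair for 106, in 2 pairs for 25 and in 1 pair for 8. The rule required the mean of these pair differences to be 3 or more. High medians and counts in the pairs therefore follow from the choice and do not test repeatability. Replicate 3 had the largest difference in 95 (68.3%), replicate 1 in 36 (25.9%) and replicate 2 in 8 (5.76%). Among the 26525 probes the corresponding shares were 40.2%, 32.3% and 27.5%.

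Of all members, 107 were not above background on control replicate 3, among them 52 of the 53 partly detected ones. In that partly detected class the differences on replicate 3 thus rest almost wholly on control values below detection, so the pair differences of the class are not compared. The median control level of the members was -5.32, -5.14 and -5.69 on replicates 1 to 3, and their median aluminium level was -1.55, -1.52 and -1.39 on the same replicates. The lower signal and lower detection of slide 3 moved with the larger differences of replicate 3, and their part in them was not tested. Without replicate 3, 218 probes met the rule, 209 of them members.

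**Figure D3:**
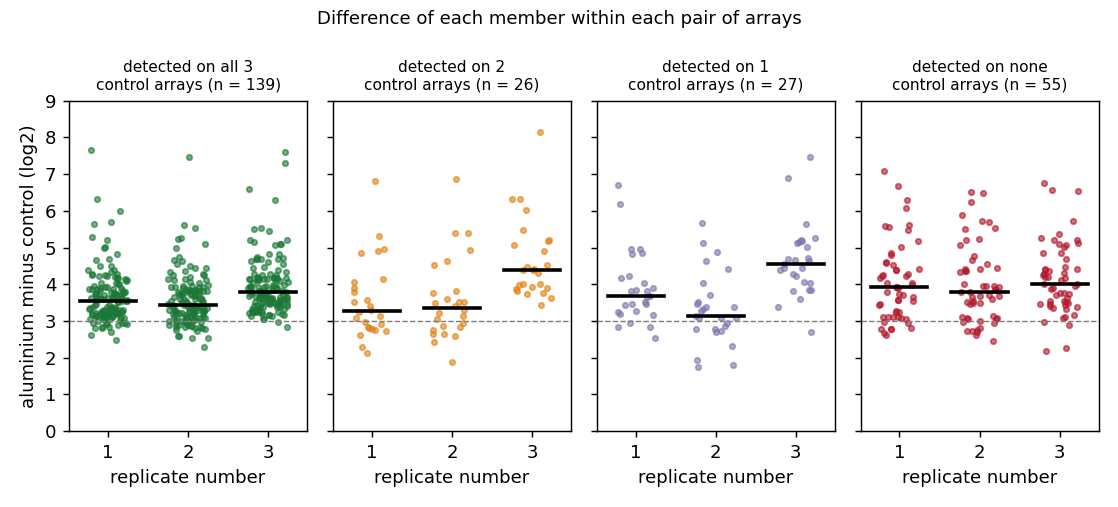
Difference between aluminium and control (log2, vertical) of each member within each replicate number, in 4 panels by the number of control arrays that detected it. Points are members, black bars their medians and the dashed line marks the difference of 3. In the panel of members detected on all 3 control arrays the bars lie at 3.54, 3.45 and 3.80. In the panels of 2 and 1 detections, control replicate 3 was undetected for 52 of the 53 members, so the values there rest on controls below detection.

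Agreement between the pairs varied widely among members. The range of the 3 differences had a median of 0.46 (log2) in members detected on every control array, and over all members it ran between 0.051 and 2.93. The widest was that of A_95_P156017 (EG650376), with differences of 3.68, 1.79 and 4.72 in replicates 1, 2 and 3. Its levels were -4.60, -4.35 and -3.88 with aluminium, against -8.28, -6.14 and -8.59 in the control, and control replicate 2 was the 1 control array that detected it. A_95_P308488 (FG147652) had -3.84, -3.54 and -3.75 with aluminium, against -6.13, -5.97 and -8.66 in the control. A_95_P213322 (EB439580) had -3.38, -3.41 and -3.30 with aluminium, against -6.52, -5.30 and -7.76 in the control. Both were detected on control replicates 1 and 2 and not on replicate 3. These widest ranges thus include control values below detection, which carry no order.

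The narrowest ranges were in bright members. A_95_P132667 (EB433249) had differences of 3.27, 3.31 and 3.32, from levels of 1.47, 1.29 and 1.57 with aluminium, against -1.80, -2.02 and -1.75 in the control. A_95_P200592, the brightest member, had 3.29, 3.25 and 3.23, and A_95_P111647 (CV020294) had 3.54, 3.55 and 3.48. The levels of A_95_P111647 were 2.68, 2.50 and 2.55 with aluminium, against -0.86, -1.05 and -0.93 in the control. Within the 139 members detected on every control array the median SD was 0.23 with aluminium and 0.22 in the control, and the SD was smaller with aluminium in 70 of them.

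Several identifiers were measured by more than 1 probe. The members covered 234 identifiers, of which 2 are only the probe's own name and 17 had 2 or 3 probes on the array. In 11 of the 17 every probe was a member, which accounts for 24 members. The other 6 had 1 member probe and 1 probe outside the set. Tobacco is an allotetraploid, so a probe may also detect near-identical transcripts of the other parental genome.

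EU429306 had 3 member probes. A_95_P185052 was at 1.25, 0.62 and 1.09 with aluminium, against -2.86, -3.71 and -3.29 in the control, A_95_P031911 was at 1.57, 1.01 and 1.26 with aluminium, against -2.46, -3.13 and -2.91 in the control and A_95_P128207 was at 0.16, -0.26 and 0.13 with aluminium, against -3.71, -4.07 and -4.21 in the control. Their differences of 4.27, 4.12 and 4.01 spanned 0.27, while their mean aluminium levels spanned 1.27. EH618633 also had 3, with differences of 3.69 for A_95_P122247, 3.53 for A_95_P022706 and 3.49 for A_95_P234049. The brightest of them, A_95_P122247, was at 4.12, 4.06 and 3.84 with aluminium, against 0.36, 0.38 and 0.20 in the control. Probes of these identifiers thus differed more in brightness than in their difference. As member probes, all had to reach a difference of 3 or more, which favours similar differences, while brightness was freer to vary.

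EB426622 was measured at 3.97 by A_95_P028891 and at 3.64 by A_95_P068790, where the levels were 1.75, 1.29 and 1.54 with aluminium, against -2.42, -2.66 and -2.26 in the control for the first of the 2. TA13085_4097 was measured at 3.50 by A_95_P002546 and at 3.46 by A_95_P106637. Both of its probes were highest in aluminium replicate 2 and in control replicate 1, with A_95_P002546 at 3.32, 3.56 and 3.13 with aluminium, against 0.28, -0.36 and -0.43 in the control. DV999772 was measured at 3.33 by A_95_P023206 and at 3.23 by A_95_P113262, although their mean aluminium levels lay 1.87 apart. A_95_P023206 was at 0.17, 0.24 and 0.47 with aluminium, against -2.93, -3.17 and -3.00 in the control.

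The other 3 of the 8 identifiers with several members named here were dimmer. EH621667 gave 4.07 with A_95_P162672 and 3.93 with A_95_P257054, where A_95_P257054 was at -2.92, -3.43 and -2.98 with aluminium, against -6.70, -7.02 and -7.40 in the control. EH620065 gave 3.56 with A_95_P255159 and 3.02 with A_95_P186297. Both of its probes were highest in replicate 2 and lowest in replicate 3 of each group, A_95_P255159 being at -3.67, -2.38 and -3.98 with aluminium, against -6.83, -5.46 and -8.43 in the control. FG134356 was undetected in every control and gave 3.87 with A_95_P211093 and 3.15 with A_95_P300068, or approximate bounds of 7.37-fold and 2.98-fold. That pair had the widest disagreement between member probes of 1 identifier, at 0.72 (log2).

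The 6 probes outside the set were dim. Only 2 of them were well above background on all 3 aluminium arrays, with differences of 2.22 and 2.41. The first of these, A_95_P211762, shares FG644900 with A_95_P286553, whose measured difference was 6.45. A_95_P211762 was at -5.33, -5.29 and -5.17 in the aluminium-treated samples, against -7.17, -7.31 and -7.98 in the control samples. Neither probe was detected in any control. Of the other 4, FG145527 and TA14042_4097 had a probe with no detection on any of the 6 arrays and differences of 0.19 and 0.23.

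**Figure D4:**
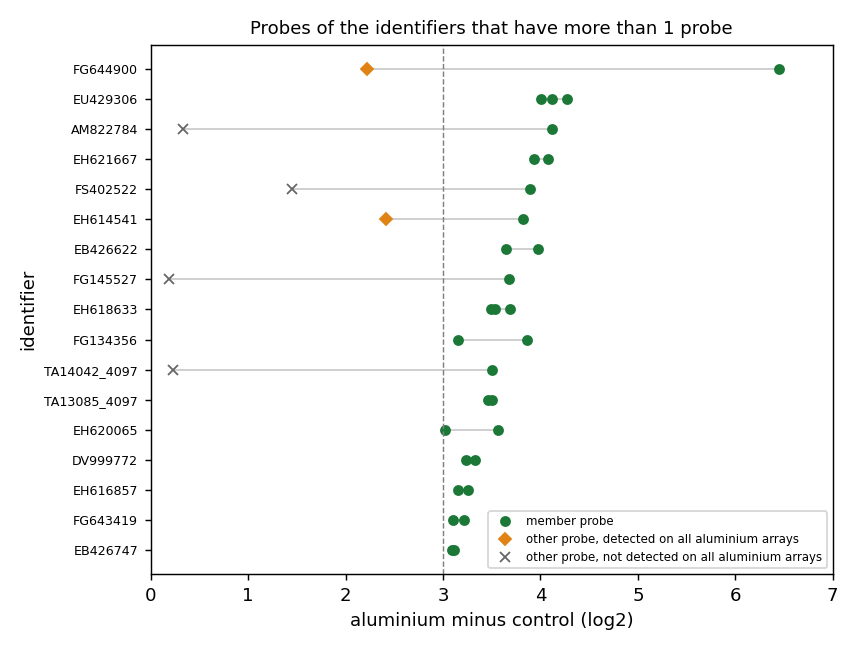
Difference between aluminium and control (log2, horizontal) of every probe of the 17 member identifiers that had more than 1 probe. Circles are members, diamonds are other probes detected on all 3 aluminium arrays and crosses are probes that were not. Member probes of the same identifier, all at 3 or more by the rule, lie within 0.72 of each other, and the 4 crosses lie below 1.5. With probes outside the set included, the widest gap within an identifier is 4.23 (FG644900).

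The letters of the identifiers, which the rule used only to leave out the forms given at the start, show which series the members came from. EB identifiers held 55 members, EH 48, TA 35, FG 27, BP 26, CV 11 and DW 10, and the remaining 35 were spread over 10 groups, counting 2 probes listed under their own name. Set against the probes that could have qualified, the rate over the whole array was 0.901%. Among the series with 100 or more such probes, EH had 3.09 members per 100, FS 2.86 and EG 1.70, while TA had 0.64, BP 0.51, DV 0.43 and TC 0.33. Of the smaller series, EU had 3 members among 24 probes, all of 1 identifier, and CN had 3 among 47. EH thus supplied 19.4% of the members from 5.66% of the qualifying probes. This is a description with no test, and probes of 1 identifier are not independent of each other.

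Detection in the control can be given for each series, as a description with no test. Of the 48 EH members, 31 were detected on all 3 control arrays and 4 on none. Of the 55 EB members, 27 were detected on all 3 and 17 on none. All 7 DV members were detected on all 3. Of the 10 DW members, 6 were detected on all 3 and 2 on none, and they include A_95_P121867, A_95_P243372 and A_95_P123392 of the 12 described first.

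**Figure D5:**
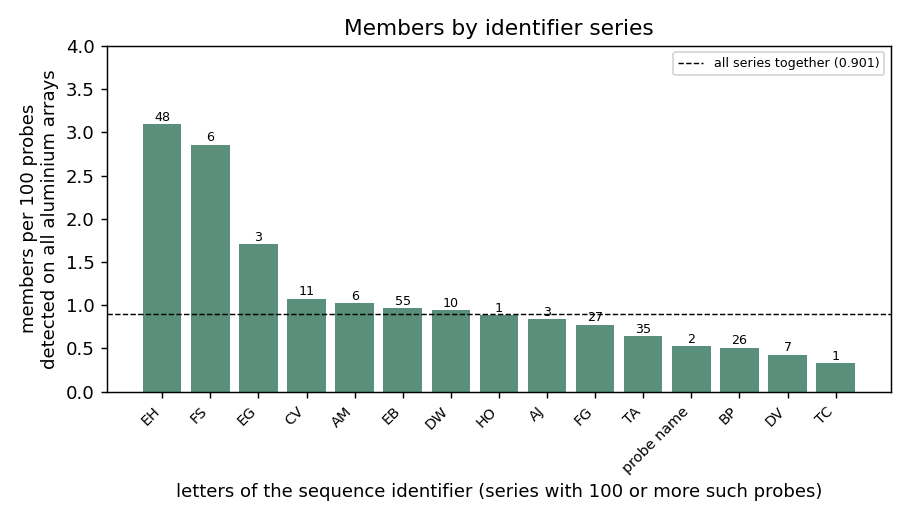
Members per 100 probes that were well above background on all 3 aluminium arrays (vertical), for each identifier series with 100 or more such probes, with the number of members above each bar. The dashed line is the rate over all series, 0.901, and EH and FS stand above it at 3.09 and 2.86.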

How the data were processed

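The authors deposited 1 Agilent Feature Extraction file per sample (version 11.5.1.1, per the file headers), with Cy3 intensity per spot. The processed signal, an intensity that was background-subtracted and detrended within the array, was used, and its deposited background and outlier flags, which are values of 0 or 1. The authors also deposited a value table on a log2 scale, with column medians of -0.026 to 0.054. Its values equalled the levels used here after centring on each probe's median, with a median absolute difference of at most 0.0012.

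Outlier spots (at most 16 on an array) and control spots were left out. Log2 signals of a probe's spots were averaged, and each array's 75th percentile was then subtracted. limma 3.58.1 in R 4.3.3 was fitted to the 28861 probes well above background on all 3 arrays of either group, without a block, and was tested on simulated data. Same-numbered arrays, which share a slide, deviated together (correlations of 0.615, 0.798 and 0.711), so the replicate numbers pair the samples. On each slide the control was in position 1 and the aluminium sample in position 2, so position and treatment cannot be told apart.

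The members and lists were chosen with earlier results of these data known. Probes named were the 12 largest differences detected in every control, the 6 largest bounds, the 3 on either side of the limit, 8 identifiers with several members, the 3 brightest and dimmest and those with the 3 widest and narrowest ranges; naming by gene list was not possible without gene names. No sequences are shown, since none were in the files used here. Alternatives were normexp correction, quantile, median and spike-in scaling, the value table, other filters, kept outliers, leaving out arrays, 1 probe per identifier and a replicate block.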

Additional observations from a re-analysis of the deposited data

How the results depend on the processing

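The number of members was 247. Under quantile, median and spike-in scaling, no filter, kept outlier spots and 1 probe per identifier it was 213 to 248. With arrays left out it was 218 to 273, and all these counts lay within 1.5 times of 247. The replicate block does not enter the count, and the deposited value table holds the same levels centred per probe. Both thus gave 247 by construction. Normexp correction with an offset of 50 left 96 members, all among the 247, of which 86 were detected on all 3 control arrays and 2 on none, and brought the median difference of the members to 2.67 (log2). Its offset shrinks dim folds by construction. Requiring detection on all 6 arrays left 139 members, all 139 called, since fewer probes qualify. Members without detection in the control numbered 57 to 94 with arrays left out, the highest without replicate 2, whose control array detected the most probes. With arrays left out, the median difference was 3.51 to 3.77, members detected in every control 130 to 147 and members called 229 to 247. The replicate block changed only the call of A_95_P164857, to 247 members called. Spike-in scaling with the block, and leaving out 5 members highest in replicate 2 of both groups (242 members and 242 calls), were chosen after seeing the data. The median of all tested probes was -0.08 under spike-in scaling, against 0.07 in the main setting. Of 1040 alternative values of the 52 named probes, 112 moved by more than the SD between replicates and 0 changed direction. Under normexp 43 moved, and with arrays left out 39 of 468 did. The filter settings, the replicate block and 1 probe per identifier leave a probe's difference unchanged, so those values could not move. The named probes were members or lay next to the limit, so the lack of reversals follows from the choice and is no test. Signal over background limits the 108 members not detected in every control.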

Other observations

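A set of 5 members had levels that separated the replicate numbers in the same way in both groups, a grouping chosen after the values were seen. Replicate 2 was the highest and replicate 3 the lowest in each group, by 1.5 or more (log2). All 5 have EH identifiers: A_95_P160527 (EH619212), A_95_P161727 (EH620361), A_95_P188912 (EH614541), A_95_P255159 (EH620065) and A_95_P164857 (EH624236). A_95_P160527 was at 0.08, 1.52 and -1.01 with aluminium, against -3.75, -2.66 and -5.84 in the control. A_95_P188912 was at -3.65, -1.42 and -4.39 with aluminium, against -6.83, -5.46 and -8.62 in the control. Within each group these 5 spread over a median of 2.53 with aluminium and 3.16 in the control, while their differences between the groups were 3.17 to 4.28. The pattern was seen in 2.02% of the members and in 2.37% of the 27423 probes with full values that could have qualified (649 probes, 55 of them EH). The median difference of those 649 probes was 0.09 (log2), with 373 above 0.

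Members were spread over the array. Cut into 4 equal blocks of rows, it held 65, 69, 55 and 58 of them, or 26.3%, 27.9%, 22.3% and 23.5%, where the probes that could have qualified were at 24.6%, 25.5%, 25.6% and 24.3%. No member was printed in more than 1 spot, so none has a repeated measurement within an array. A single further probe was 8-fold higher without being well above background on all 3 aluminium arrays.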
